A study of Homo sapiens
Mus musculus and Homo sapiens and Mus musculus with 7 samples.

Results

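MYC and 8 genes, most of them often induced within minutes of a growth signal, were followed in human RNA from a mixed culture of human and mouse cells. The 9 genes, JUN, JUNB, JUND, FOS, EGR1, IER2, ID2, ID3 and MYC, were taken by symbol from the 58721 human genes in the count files, and all 9 were found. The IPs were made from a co-culture of HEK293 cells, a human embryonic kidney line, expressing RPL22-HA, and NIH3T3 cells, a mouse fibroblast line, expressing RPL22-V5. RPL22 is a protein of the large ribosomal subunit, so an antibody to its tag can pull down ribosomes with the mRNA they carry. An HA antibody, aimed at HEK293 ribosomes, was used in 2 IPs, and a V5 antibody, aimed at NIH3T3 ribosomes, in 2 IPs. Unprecipitated RNA came from 1 co-culture, called input below, from 1 HEK293 monoculture and from 1 NIH3T3 monoculture. The labels do not say whether the monocultures carried a tag, whether a tagged line was a single clone, or how the numbered lysates relate to separate cultures, so p-values measure only the spread between these IPs. Of the 9 genes, 4 passed the filter on low counts (MYC, JUN, ID2 and ID3), and JUNB, JUND, FOS, EGR1 and IER2 did not.

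JUN, JUNB and JUND bind FOS and its relatives, or each other, to form the transcription factor AP-1. EGR1 is a zinc-finger transcription factor and IER2 a small nuclear protein. Most of these genes are textbook targets of serum and ERK signalling whose mRNAs are made in a burst and decay quickly. MYC, a transcription factor that pairs with MAX and drives ribosome production and growth, also has a short-lived mRNA. ID2 and ID3 lack a DNA-binding region and hold E proteins away from DNA; in many cells they are induced by serum or BMP. AU-rich elements in the 3′ UTR, built around the pentamer ATTTA, are a known source of this fast decay.

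By the GENCODE 29 transcripts, 8 of the 9 genes held at least 1 ATTTA on the sense strand of the 3′ UTR, against 64.3% of 19151 protein-coding genes, and IER2 held 0. FOS had 5 and was the one member with the longer motif TTATTTATT, which 7.50% of protein-coding genes had. MYC had 4 in a 3′ UTR of 476 bases, or 8.40 per kb, against a median of 1.40 per kb over all these genes. Within the last 300 bases of the 3′ UTR, ATTTA occurred in 8 of the 9 members and in 48.9% of the 14785 genes with a 3′ UTR that long. In that window 2 of the 9, MYC and FOS, had at least 3, against 6.83% of those genes. JUN and ID2 had 3 each in the whole 3′ UTR, JUNB 2, and JUND, EGR1 and ID3 1 each. Per kb, FOS had 6.20, JUNB 4.00, ID2 3.87, JUN 2.33, ID3 1.91, JUND 1.47 and EGR1 0.810, the last below the median of all genes. These matches are letters in an annotation and were not measured as sites. The 30 bases of the 3′ UTR with the most pentamers, centred on them where possible, are shown for 7 members, sense strand from 5′ to 3′ and written as DNA, with the pentamers in capitals (overlapping in FOS), because the element is a known feature of such short-lived mRNAs.
JUN: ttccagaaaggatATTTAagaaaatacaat
JUNB: aatatatttgtgtATTTAacagggagggga
JUND: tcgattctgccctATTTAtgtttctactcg
FOS: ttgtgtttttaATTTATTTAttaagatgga
EGR1: actgaaaatgtaaATTTAtaaatatattca
ID2: tgtgatattcgttATTTAtgaaaaagactt
ID3: ttctgttgccctgATTTAtgaactctataa

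The bases around the pentamers differ from gene to gene. On hg38, MYC (ENSG00000136997.17) lies on chromosome 8 from 127735434 to 127741434 on the plus strand, ID3 (ENSG00000117318.8) on chromosome 1 from 23557918 to 23559794 on the minus strand, and ID2 (ENSG00000115738.9) on chromosome 2 from 8678845 to 8684453 on the plus strand. JUN (ENSG00000177606.6) lies on chromosome 1 from 58780788 to 58784327 on the minus strand and is a single exon. Counts were made over whole genes, exons and UTRs together. JUNB and JUND lie on chromosome 19 as single exons. Counting used no strand, and HOOK2 covers 14.2% of the exonic bases of JUNB, AC011446.2 covers 30.8% of those of IER2, and ID2-AS1 covers 1.72% of those of ID2. Reads in those stretches cannot be assigned with certainty. In the 6 human libraries together HOOK2 had 22 counts and AC011446.2 had 0.

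Human counts numbered 729698 and 1213213 in HA IPs, 128915 and 81798 in V5 IPs, 280163 in the input and 826673 in the HEK293 monoculture. They made up 82.1% and 77.6% of all counts in HA IPs, 6.25% and 4.48% in V5 IPs and 26.9% in the input. CPM below are counts per 1000000 human counts, with exact Poisson 95% intervals that cover counting error only, since the reads carry no molecular identifiers. In the co-culture libraries, fewer human cells and less RNA per cell cannot be told apart. In the NIH3T3 monoculture, ID3 had 1 count and the other 8 genes 0, which scales to at most 0.968 of the 18 ID3 counts of V5 IP 1. Of 8 HEK293-associated markers, 4 were tested and 0 called between the HA IPs and the input by edgeR (0 at an unadjusted p under 0.05, and 0 of 2 by DESeq2). KRT18, an epithelial keratin, was at 123 and 135 CPM in HA IPs, 0 and 48.9 in V5 IPs, 136 in the input and 195 in HEK293 cells. VIM, or vimentin, was at 94.6 and 49.5 CPM in HA IPs, 287 and 36.7 in V5 IPs, 39.3 in the input and 103 in HEK293 cells. In V5 against input the log2 changes of KRT18 (−3.28, edgeR adjusted p = 0.0959) and VIM (1.55, edgeR adjusted p = 0.505) had opposite signs. Human fibroblast markers summed to 0 to 12.2 CPM per library, with 7 of 9 at 0 in all 6. Mitochondrial genes made up 0.354% and 0.466% of human counts in HA IPs, 2.28% and 3.54% in V5 IPs, 5.58% in the input and 8.35% in HEK293 cells.

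Nearly all reads of the group came from MYC, ID3 and ID2. Together these 3 made up 93.8% and 94.7% of the members' counts in HA IPs, 87.9% and 91.5% in V5 IPs, 95.8% in the input and 95.4% in HEK293 cells. The other 6 genes together had 21 and 34 counts in HA IPs, 8 and 4 in V5 IPs, 10 in the input and 33 in HEK293 cells. FOS, EGR1, JUNB and IER2, which are often used to mark an immediate early response, had between 0 and 9 counts in every library, so the label rests on the names of these genes more than on their level here. In all, 8 and 9 members were detected in HA IPs, 6 in each V5 IP, 6 in the input and 8 in HEK293 cells. The summed level of the 9 was 460 and 526 CPM in HA IPs, 512 and 575 in V5 IPs, 846 in the input and 871 in HEK293 cells.

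**Figure D1:**
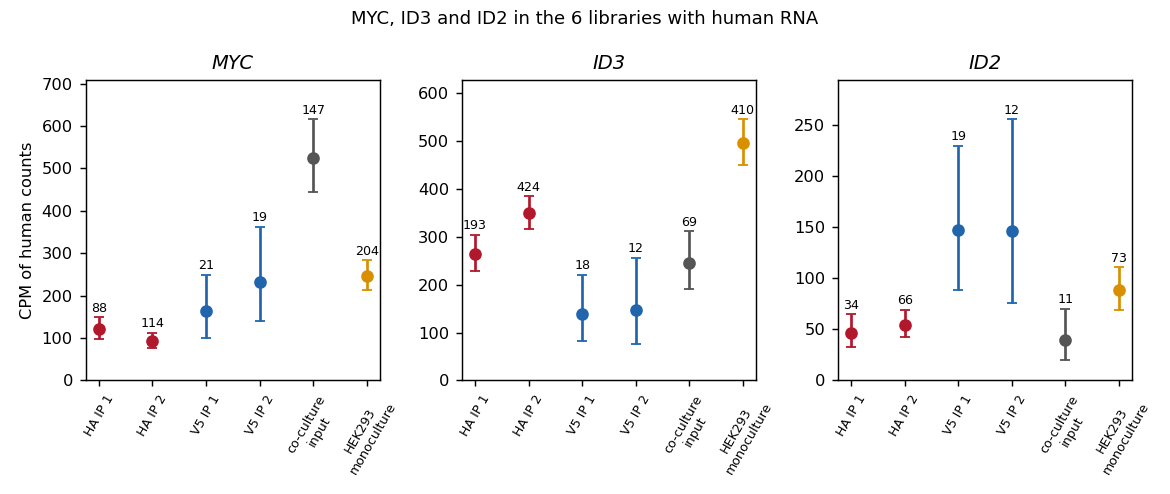
CPM of human counts of MYC, ID3 and ID2 (vertical axes, from 0) in each of the 6 human libraries, with exact Poisson 95% intervals as bars and the count printed above each. MYC is lowest in the 2 HA IPs (121 and 94.0 CPM) and highest in the input (525 CPM), ID3 is highest in HEK293 cells (496 CPM), and ID2 is highest in V5 IPs (both 147 CPM).

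MYC, the most abundant member in the input, was lower in the RNA bound to HA-tagged ribosomes than in the co-culture input, whose lysate the labels do not number. It was at 121 CPM in HA IP 1 (interval 96.7 to 149, 88 counts) and 94.0 CPM in HA IP 2 (77.5 to 113, 114 counts), against 525 CPM in the input (443 to 617, 147 counts). The HA IPs averaged 107 ± 18.8 CPM (SD, n = 2). Both HA IPs lay below the input, and neither interval reached the input's. Pooled over the HA IPs, MYC was 5.05-fold lower than in the input, a ratio of 0.198 (counting interval 0.159 to 0.247). In the edgeR quasi-likelihood test the log2 change was −2.48 (SE 0.66, adjusted p = 0.0311, Benjamini-Hochberg over 6244 genes), and MYC was lower in 2 of 2 HA IPs. It was the single member called of the 4 tested, where 0.625% of all 6244 tested genes were called, 0.192% higher and 0.432% lower. The median change over all tested genes was 0.38 on the same log2 scale.

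MYC stayed below the input under all 14 alternative settings, with log2 changes of −2.71 to −1.96 and adjusted p from 0.000442 to 0.334, and it was called under 9 of them. Without HA IP 1 the change was −2.53 (adjusted p = 0.334) and without HA IP 2 it was −2.53 (adjusted p = 0.219) in edgeR. With the trend of the changes on transcript GC content removed, it was −1.96 (edgeR adjusted p = 0.274), and with no filter on low counts −2.46 (edgeR adjusted p = 0.0939). The MYC transcript has 53.9% GC, against a median of 49.8% over protein-coding genes. The input is 1 library and was assumed to vary like the IPs. The mitochondrial share also differed between the HA IPs and the input. With mitochondrial genes left out of the human counts, every member level, MYC included, stayed within its counting interval. The edgeR test of MYC was not repeated that way.

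**Figure D2:**
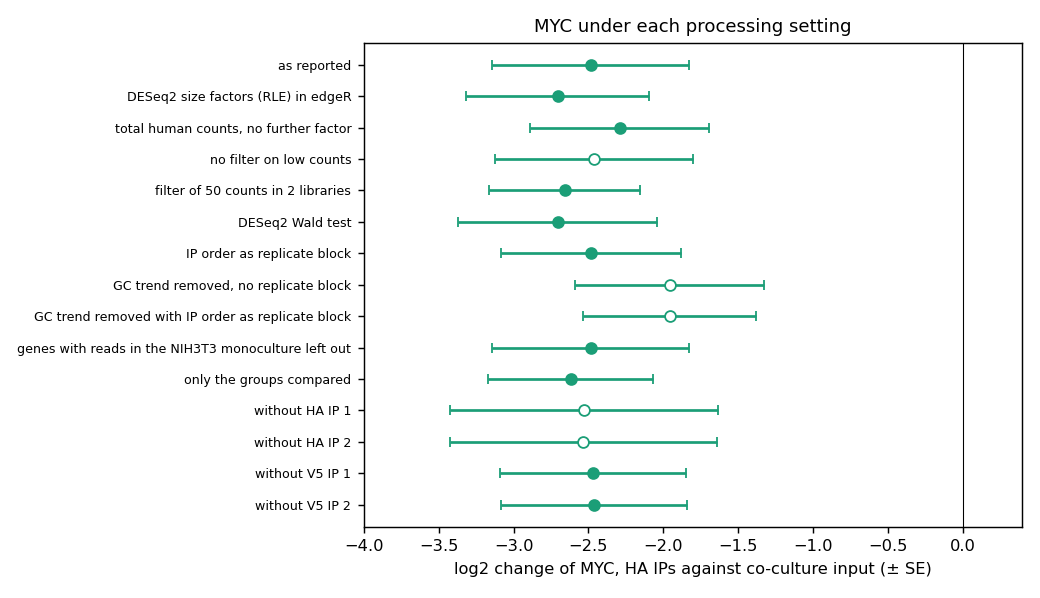
Log2 change of MYC, HA IPs against the co-culture input (horizontal axis), as reported and under 14 alternative settings, with SE as bars, filled where the adjusted p was under 0.05 and open otherwise. Every point lies between −2.71 and −1.96, and 5 of the 14 alternatives are open.

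Against the other libraries MYC gave no call. How human RNA entered the V5 IPs, made with an antibody to the mouse cells' tag, was not tested. These IPs had MYC at 163 CPM (101 to 249, 21 counts) and 232 CPM (140 to 363, 19 counts), with a mean of 198 ± 49.1 CPM (SD, n = 2). Both values lay above both HA values and below the input. The interval of V5 IP 1 overlapped those of both HA IPs, and that of V5 IP 2 overlapped that of HA IP 1 only. HA against V5 gave a log2 change of −0.50 (SE 0.60, edgeR adjusted p = 0.785). V5 against input gave −1.98 (SE 0.69, edgeR adjusted p = 0.166, unadjusted p = 0.0039), a pooled CPM ratio of 0.362 (counting interval 0.248 to 0.516). HEK293 cells had 247 CPM (214 to 283, 204 counts), and HA against HEK293 gave −1.21 (SE 0.66, edgeR adjusted p = 1.000).

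MYC thus ran from the HA IPs through the V5 IPs and HEK293 cells up to the input. The V5 IPs and HEK293 cells were not distinguishable at this depth, with a CPM ratio of 0.769 (0.534 to 1.08). The pooled HA to HEK293 ratio was 0.421 (0.345 to 0.514), an interval that covers counting error only. The input exceeded HEK293 cells 2.13-fold (1.71 to 2.64), a comparison of 1 library with 1 that has no replicate check. Between IPs of the same antibody the ratios of IP 2 to IP 1 were 0.779 (0.585 to 1.04) for HA and 1.43 (0.725 to 2.79) for V5, both within counting error. Per length, MYC was at 97.2 and 69.3 TPM in HA IPs, 133 and 179 in V5 IPs, 380 in the input and 184 in HEK293 cells. By TPM it ranked 1316 and 1368 among human genes in HA IPs and 429 in the input.

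ID3, an inhibitor of E proteins, was not called in HA against input. It was at 264 CPM (228 to 305, 193 counts) and 349 CPM (317 to 384, 424 counts) in HA IPs, against 246 CPM (192 to 312, 69 counts) in the input. The interval of HA IP 1 overlapped the input's and that of HA IP 2 did not. The fitted change, 0.17 on the log2 scale (SE 0.67, edgeR adjusted p = 0.970), was not called and turned sign under 4 alternatives, including DESeq2 size factors (−0.0661) and leaving out HA IP 2 (−0.31). The pooled CPM ratio was 1.29 (1.00 to 1.68), so a change in ID3 as large as that of MYC lay outside its counting interval. The difference between the MYC and ID3 changes was not tested. Per length, the ratio of MYC to ID3 was 0.273 and 0.161 in HA IPs, 0.699 and 0.948 in V5 IPs, 1.28 in the input and 0.298 in HEK293 cells. ID3 thus had the higher TPM in every library except the input.

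The V5 IPs held ID3 at 140 CPM (82.8 to 221, 18 counts) and 147 CPM (75.8 to 256, 12 counts). Both lay below both HA IPs. HA against V5 gave a log2 change of 1.51 (SE 0.59, edgeR adjusted p = 0.296, unadjusted p = 0.0105), where the median of all genes was 0.37. V5 against input gave −1.34 (SE 0.69, edgeR adjusted p = 0.394). HEK293 cells had 496 CPM (449 to 546, 410 counts), the highest of the 6 libraries. HA against HEK293 gave −0.66 (SE 0.63, edgeR adjusted p = 1.000), and the input stood at 0.497 of the HEK293 level (0.379 to 0.642, 1 library against 1). HA IP 2 exceeded HA IP 1 1.32-fold (1.11 to 1.57), which is beyond counting error.

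ID2, the second inhibitor, was highest in V5 IPs. It was at 46.6 and 54.4 CPM in HA IPs (34 and 66 counts), 147 CPM in both V5 IPs (19 and 12 counts), 39.3 CPM in the input (11 counts) and 88.3 CPM in HEK293 cells (73 counts). Both V5 values lay above all other libraries, but their intervals (88.7 to 230 and 75.8 to 256) overlapped that of HEK293 cells (69.2 to 111). The pooled V5 to HEK293 ratio was 1.67 (counting interval 1.06 to 2.57). The share of all genes with both V5 values highest was not counted. The V5 to input ratio was 3.75 (counting interval 1.83 to 8.26) by total human counts. The test, with TMM scaling, gave 1.34 on the log2 scale (SE 1.06, edgeR adjusted p = 0.587), and with total counts it gave 1.90 (edgeR adjusted p = 0.439). HA against V5 gave −1.14 (SE 0.79, edgeR adjusted p = 0.584), HA against input 0.21 (SE 1.00, adjusted p = 0.978) and HA against HEK293 −0.78 (SE 0.88, adjusted p = 1.000). The sign of HA against input turned with DESeq2 size factors (−0.0257) and without HA IP 2 (−0.17). The order of ID2 was therefore the input, the HA IPs, HEK293 cells and the V5 IPs, with the input and the HA IPs within counting error (ratio 1.31, 0.702 to 2.71).

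**Figure D3:**
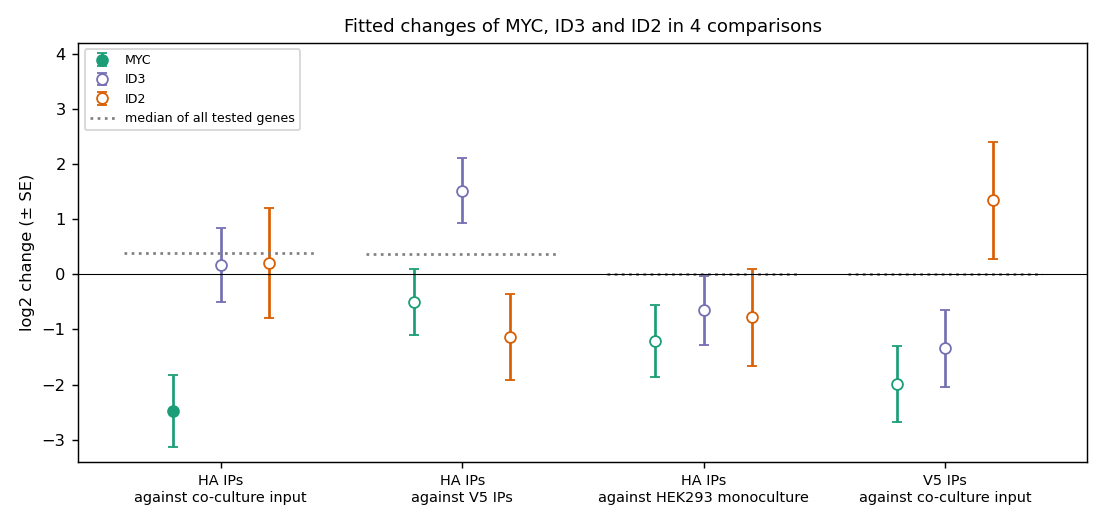
Fitted log2 changes of MYC, ID3 and ID2 (vertical axis, bars are SE) in the 4 comparisons, filled where the adjusted p was under 0.05 and open otherwise, with dotted lines at the median of all tested genes. The one filled point is MYC in HA against input, at −2.48.

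Among the AP-1 subunits, JUN had the most reads. It had 7 and 7 counts in HA IPs (9.59 and 5.77 CPM), 6 and 2 in V5 IPs (46.5 and 24.5 CPM), 0 in the input and 14 in HEK293 cells (16.9 CPM). A count of 0 in the input allows up to 10.7 CPM. With 3 counts in place of the input's 0, the pooled V5 level was 3.55-fold higher than the input. With the input's 0 kept, the lower counting limit of the pooled ratio was 2.27, and that of V5 IP 2 alone, with 2 counts, was 0.643. No limit was computed with 3 counts in place of the 0. HA, at 14 pooled counts, was within the limit of the input. Fitted changes against the input depend on how a 0 is treated, and were not called (edgeR adjusted p = 0.812 for HA, 0.439 for V5). HA against V5 gave −1.88 (SE 1.57, edgeR adjusted p = 0.648) and HA against HEK293 −1.16 (SE 1.69, edgeR adjusted p = 1.000).

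JUNB and JUND, the other JUN proteins, were near the limit of detection. JUNB had 2 and 6 counts in HA IPs and 0 in each of the other 4 libraries, whose limits were 23.3 and 36.7 CPM in V5 IPs, 10.7 in the input and 3.63 in HEK293 cells. The HA levels of JUNB, 2.74 and 4.95 CPM, lay below the limits of the V5 IPs and the input, so no difference from those was detectable at this depth. Against HEK293 cells the lower counting limit of the pooled HA ratio was 0.726, which holds no direction either. JUND had 4 and 5 counts in HA IPs, 0 and 0 in V5 IPs, 2 in the input and 6 in HEK293 cells, or 5.48 and 4.12 CPM in HA IPs, 7.14 in the input and 7.26 in HEK293 cells. The HA to input ratio of JUND was 0.649 (0.134 to 6.17), which holds no direction.

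FOS, the partner of JUN in AP-1, had 0 and 4 counts in HA IPs, 1 and 1 in V5 IPs, 5 in the input and 8 in HEK293 cells. That is 0 and 3.30 CPM in HA IPs, 7.76 and 12.2 in V5 IPs, 17.8 in the input and 9.68 in HEK293 cells, and both HA values lay below the others. The pooled HA to input ratio was 0.115 (counting interval 0.0229 to 0.536) and HA to HEK293 0.213 (0.0469 to 0.794). The pooled HA to V5 ratio was 0.217 (0.0311 to 2.40), which holds no direction. EGR1 had 5 and 3 counts in HA IPs, 1 and 1 in V5 IPs, 3 in the input and 4 in HEK293 cells, with an HA to input ratio of 0.385 (0.0923 to 2.25). IER2 had 3 and 9 counts in HA IPs, 0 and 0 in V5 IPs, 0 in the input and 1 in HEK293 cells, an HA to HEK293 ratio of 5.11 (0.755 to 218). When genes were tested with no filter, the 5 genes had an edgeR adjusted p of 1 in every comparison.

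**Figure D4:**
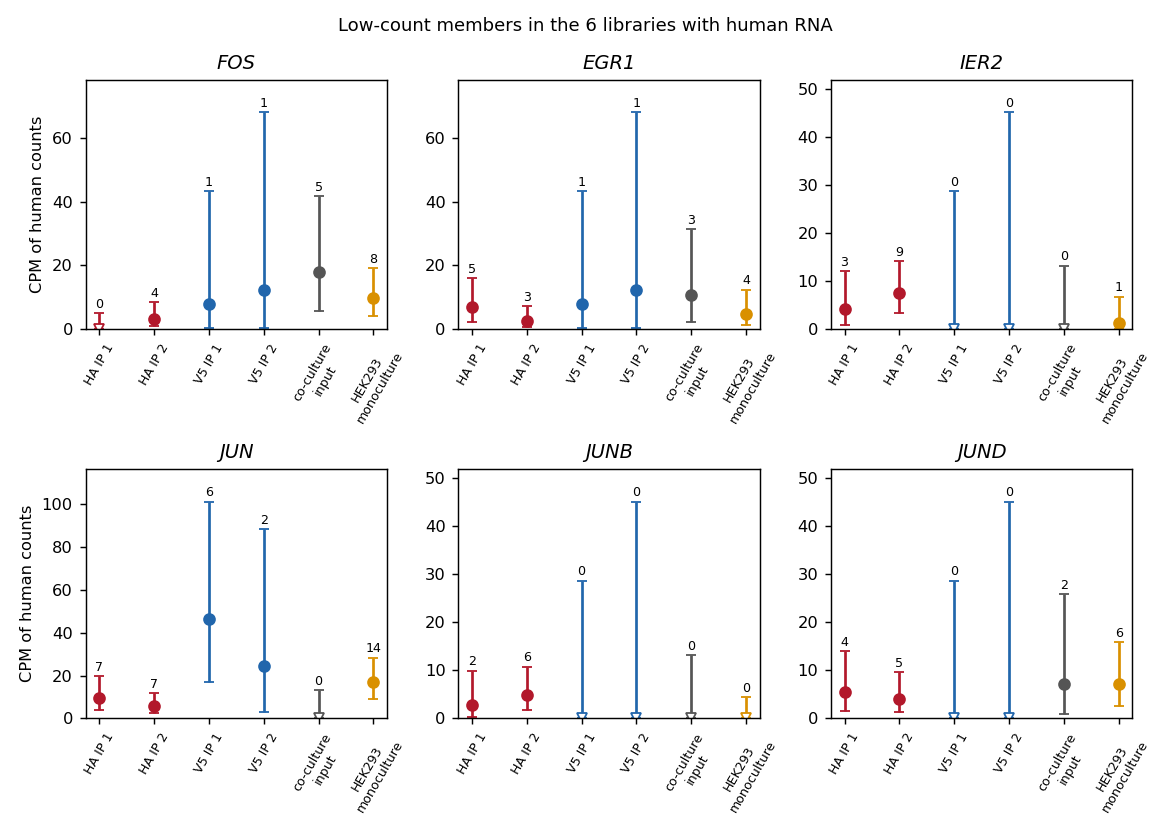
CPM of human counts (vertical axes, from 0) of FOS, EGR1, IER2, JUN, JUNB and JUND in the 6 human libraries, with exact Poisson 95% intervals as bars, counts printed above and open markers at 0. Counts run from 0 to 14, and the widest intervals are those of the V5 IPs.

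Across comparisons, 1 of the 4 tested members was called in HA against input and 0 in the other 3. By edgeR, 0.368% of all tested genes were called in HA against V5 (0.0480% higher, 0.320% lower), 0.368% in HA against HEK293 (0.0480% higher, 0.320% lower) and 0.753% in V5 against input (0.256% higher, 0.496% lower). At an unadjusted p under 0.05 the tested members numbered 1 in HA against V5 (ID3), 0 in HA against HEK293 and 1 in V5 against input (MYC). DESeq2 called 0 of 3 in HA against V5 and 0 of 2 in V5 against input, and gave no member an adjusted p in HA against HEK293. HA and V5 were set against the same input library, so their changes are not independent of each other. In HA against HEK293 the changes of all 4 were below 0, from −1.21 to −0.66, where the median of all genes was 0.01.

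Genes tied to the members by function gave little by the same test. Of 20 other AP-1 and immediate early genes, 5 passed the filter and 0 were called in HA against input by edgeR (0 at an unadjusted p under 0.05, and none with an adjusted p in DESeq2). The median log2 change of the 5 was 0.00. With 3 counts for a 0 it was −1.21, which is the substituted value of the 1 gene at 0 in the input. That value used total human counts, and the others were fitted with TMM. The sum of the 20 genes was 53.4 and 56.9 CPM in HA IPs, 132 and 208 in V5 IPs, 89.2 in the input and 56.9 in HEK293 cells. KLF6, a zinc-finger factor, had 7 and 9 counts in HA IPs and 1 in the input. NR4A1, an orphan nuclear receptor, had 12 and 12 counts in HA IPs and 10 in the input, or 16.4 and 9.89 CPM against 35.7 CPM. Of 11 feedback inhibitors of ERK signalling, 0 passed the filter. DUSP1, a MAP kinase phosphatase, had 0 counts in both HA IPs and in the input, 4 and 0 in V5 IPs and 1 in HEK293 cells. DUSP14, a related phosphatase, had 6 and 1 in HA IPs, 0 in V5 IPs and the input, and 14 in HEK293 cells.

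The MYC network itself was sparse. Of 15 partners and paralogues of MYC, 7 were tested and 0 called in HA against input by edgeR (1 at an unadjusted p under 0.05, and none with an adjusted p in DESeq2), with a median of −0.61. MLX, a MAX-like protein, was at 34.3 and 24.7 CPM in HA IPs and 39.3 in the input. MLXIP, its partner, was at 6.85 and 2.47 CPM in HA IPs and 14.3 in the input. A list of the ID family and E proteins outside the members also held genes of other families. Of its 11 genes, 3 were tested and 0 called (0 at an unadjusted p under 0.05, and none with an adjusted p in DESeq2), with a median of 0.43. Those tested were an E protein, HEY1 and HES1, and no ID gene of the list passed the filter. HEY1, a repressor downstream of Notch signalling, had a log2 change of 0.15 (SE 1.38, edgeR adjusted p = 0.992), which turned to −0.0682 with DESeq2 size factors. HES1, another, had 0.58 (SE 1.40, edgeR adjusted p = 0.957), and −0.0305 without HA IP 2.

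All 25 known MYC targets were tested, and how many lay above 0 depended on the comparison. In HA against input 19 lay above 0 and 6 below, with a median of 0.85 (0.61 with 3 counts for a 0), where 61.4% of all tested genes lay above 0 and their median was 0.38. In HA against HEK293 the same 25 were 6 above and 19 below, with a median of −0.38, where 50.6% of all genes lay above 0. In HA against V5 they were 14 above and 11 below. In HA against input edgeR called 0, 5 had an unadjusted p under 0.05, and DESeq2 called 1 of the 14 to which it gave an adjusted p. The lowest adjusted p was 0.0926, for NOP58, a protein of the box C/D snoRNP, with 119 and 106 counts in HA IPs and 2 in the input. NPM1, a nucleolar chaperone, was at 4085 and 2338 CPM in HA IPs against 1092 in the input (log2 change 1.33, SE 0.52, edgeR adjusted p = 0.338). NCL, or nucleolin, was at 1481 and 996 CPM in HA IPs against 336 in the input (1.67, SE 0.58, edgeR adjusted p = 0.215). With total human counts, the scaling of the CPM given here, all 3 passed the threshold (edgeR adjusted p = 0.000257 for NPM1, 0.000584 for NCL and 0.00971 for NOP58). NPM1 also passed without HA IP 2 (1.49, edgeR adjusted p = 0.00109). NCL passed without HA IP 2 (1.73, edgeR adjusted p = 0.0136) and in DESeq2 (1.46, adjusted p = 0.0476). NOP58 passed with the compared groups alone (edgeR adjusted p = 0.0109), without V5 IP 1 (0.0240) and without V5 IP 2 (0.0249).

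In V5 against input, 12 of the 25 targets lay above 0 and 13 below, with a median of −0.0062, and 2 were called higher and 0 lower, where 0.256% of all tested genes were called higher. NCL was at 2645 and 2164 CPM in V5 IPs against 336 in the input, a log2 change of 2.28 (SE 0.60, edgeR adjusted p = 0.0274). NOP58 had 43 and 21 counts in V5 IPs against 2 in the input, a CPM ratio of 42.5 (11.3 to 359). The test, with TMM scaling, gave 4.78 on the log2 scale (SE 1.16, edgeR adjusted p = 0.0172). NCL was not called without V5 IP 1 (2.13, edgeR adjusted p = 0.204) or without V5 IP 2 (2.45, edgeR adjusted p = 0.122), and NOP58 was not with the GC trend removed (4.08, edgeR adjusted p = 0.0798) or with 50 counts required in 2 libraries (5.16, edgeR adjusted p = 0.0653). The 1 HEK293 library had NCL at 1334 CPM and NOP58 at 254 CPM, against 336 and 7.14 CPM in the 1 input library. Pooled V5 to HEK293 CPM ratios were 1.84 (counting interval 1.66 to 2.05) for NCL and 1.20 (0.889 to 1.59) for NOP58. Pooled HA to HEK293 ratios were 0.883 for NCL and 0.456 for NOP58. The size of both changes therefore depended on which library was the reference. No gene of any list was called by edgeR in HA against V5 or in HA against HEK293. The targets with an unadjusted p under 0.05 numbered 5 and 2 there, and DESeq2 called 0 of 23 and 0 of 5.

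Of 20 proteins that act on AU-rich mRNA, 13 were tested and 0 called in HA against input by edgeR (1 at an unadjusted p under 0.05, and 0 by DESeq2, which gave 1 of them an adjusted p). Their changes were above 0 in 11 and below in 2, with a median of 1.00 (0.71 with 3 counts for a 0). Over all tested genes 61.4% lay above 0, with a median of 0.38. For 4 of the 13 the input held 0 counts, and a 0 there sets the sign of the fitted change. HNRNPD, also known as AUF1, was at 78.1 and 111 CPM in HA IPs against 35.7 in the input (1.26, SE 1.03, edgeR adjusted p = 0.806).

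**Figure D5:**
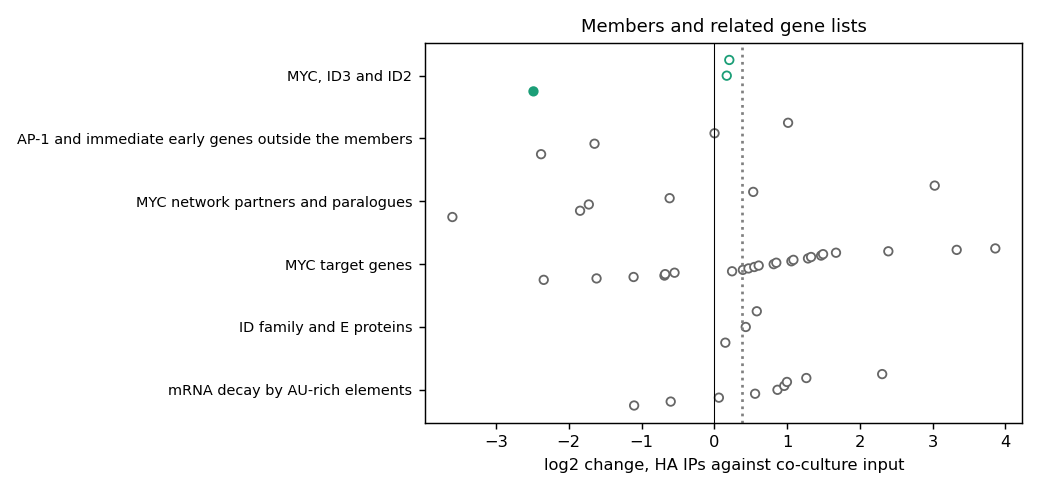
Log2 changes, HA IPs against co-culture input (horizontal axis), of MYC, ID3 and ID2 and of the tested genes of 5 lists, with genes at 0 in either group left out, filled where the adjusted p was under 0.05 and open otherwise, and a dotted line at the median of all tested genes, 0.38. MYC is the one filled point, and the vertical spread within a list only separates the points.

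As a description over the 6 human libraries, of which 5 are from co-culture and 1 is a monoculture, and which differ in depth, the genes most like MYC were sought by Pearson's r of log2(CPM + 10) among 2252 genes with a mean of at least 50 CPM. PHGDH, the enzyme at the head of serine synthesis, came first (r = 0.969). It was at 503 and 440 CPM in HA IPs, 814 and 782 in V5 IPs, 1453 in the input and 917 in HEK293 cells, in the same order of groups as MYC. EBP, a sterol isomerase, came next (r = 0.956), at 215 and 177 CPM in HA IPs and 339 in the input. XIST, the noncoding RNA that coats an inactive X chromosome, was the third (r = 0.952). For JUN the nearest were DHX9, an RNA helicase (r = 0.987), EIF3L, a subunit of initiation factor eIF3 (r = 0.985), and TMBIM6 (r = 0.985). For ID2 they were LYPLAL1 (r = 0.999), OFD1, a centriole protein (r = 0.988), and TAF1D (r = 0.976). LYPLAL1 was at 41.1 and 51.9 CPM in HA IPs, 132 and 134 in V5 IPs, 35.7 in the input and 77.4 in HEK293 cells. With 6 libraries in 4 groups, each r rests on few independent points.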

How the data were processed

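RNA was measured in 7 libraries made by SMART-seq and Nextera DNA Flex, per the labels' protocols. The deposited values are raw counts per gene, made by the authors with featureCounts 1.5.2 in paired, unstranded mode over exons grouped by gene, on a combined human and mouse annotation, per the file headers. STAR 2.5.2 and hg38 are named in the submitters' processing notes. All 58721 human identifiers matched GENCODE 29.

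Counts of human genes in 6 libraries were scaled to CPM and TPM of human reads and tested with edgeR 4.0.16 (quasi-likelihood, TMM, two-sided, Benjamini-Hochberg, threshold 0.05) in R 4.3.3, in one fit of 4 groups with 2 residual degrees of freedom, after filterByExpr (minimum count 10, minimum total 15) kept 6244 genes. Single libraries were compared by CPM ratio with exact binomial-based 95% intervals. A fold against 0 counts used 3 counts and total human counts, without TMM. DESeq2 1.42.0 was an alternative, as were other scalings and filters, removal of a GC trend, a replicate block, a fit of the compared groups alone, removal of genes with NIH3T3 reads, and leaving out each IP. Scripts were tested on simulated data. Transcripts were searched in Python 3.11.15 for exact ATTTA and TTATTTATT, with overlaps counted.

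The members and lists were chosen with earlier results of these data known. Of each list, called genes are named (at most 4 in HA against input, largest change first), or else the 2 with the highest mean CPM. One further list gene that met this rule is not reported here. Likeness to MYC, JUN and ID2 names the 3 highest r.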

Additional observations from a re-analysis of the deposited data

How the results depend on the processing

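Of 209 alternative log2 changes of the tested members, 198 kept their direction and side of the threshold, 5 kept the direction of MYC in HA against input but not its call, and 6 turned sign, all uncalled and in HA against input. ID2 was −0.0257 with DESeq2 size factors, and −0.17 to 0.42 with an IP left out. ID3 was −0.0661 with DESeq2 size factors, −0.0396 with 50 counts required in 2 libraries, −0.0663 in DESeq2, and −0.31 to 0.45 with an IP left out. Members called in HA against input numbered 1 as reported, and 0 with no filter, with the GC trend removed, and with the GC trend removed and the replicate block, and 0 to 1 when an IP was left out. In the other comparisons members called were 0 in each alternative that gave a value, and DESeq2 in HA against HEK293 gave none, since no member had an adjusted p. Of 107 alternative values of 6 list genes, 92 kept direction and side of the threshold, 4 lost a call, 9 gained one and 2 turned sign, HEY1 to −0.0682 with DESeq2 size factors and HES1 with an IP left out (−0.0305 to 0.93). The causes were not tested.

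Genes called in HA against input (39) were 68 with DESeq2 size factors, 104 with total counts (65 higher, 39 lower), 82 in DESeq2, 260 with the compared groups alone, and 29 to 140 with an IP left out (140 without V5 IP 1, 137 without V5 IP 2). In HA against V5 (23) they were 38 with total counts, 38 with GC removal and the block, and 18 to 117 with an IP left out. In HA against HEK293 (23) they were 53 with total counts, 35 in DESeq2, 48 with the compared groups alone, and 26 to 63 with an IP left out. In V5 against input (47) they were 72 with DESeq2 size factors, 105 with total counts (85 higher, 20 lower), 30 with no filter, 7 with 50 counts required in 2 libraries (6 higher, 1 lower), 22 with GC removed, 29 with GC removal and the block, 71 with the compared groups alone, and 76 to 167 with an IP left out. The median of all genes in HA against input, 0.38, was 0.17 with DESeq2 size factors and 0.57 with total counts.

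IP order gives no pairing by the labels, since the first IPs share lysate 1 while the second used lysates 5 (HA) and 4 (V5). Their deviations correlated at r = 0.204 over 2237 genes. With order as a replicate block, MYC in HA against input was −2.48 (edgeR adjusted p = 0.00832), and no member's call changed. Depth limits FOS, EGR1, IER2, JUNB and JUND most, above all in the V5 IPs, where 3 counts equal 23.3 and 36.7 CPM.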
